A study of Mus musculus with 2 samples.

Results

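The ligands and receptors of the platelet-derived growth factor (PDGF) family were followed in costal cartilage-derived stem cells (CDSCs) before and after culture. The genes were the 4 ligand genes Pdgfa, Pdgfb, Pdgfc and Pdgfd and the receptor genes Pdgfra and Pdgfrb, chosen by name as 6 of the 21849 genes in the matrices. CDSCs came from rib cartilage of newborn C57BL/6J mice in the first week of life, CD45.1 or ZsGreen by strain, by collagenase digestion and a sort for cells without CD45, a blood cell protein, and with CD51, an integrin. The primary group was 1 library of such cells, and the cultured group was 1 library of cells grown in minimum essential medium with fetal bovine serum to passage 2 to 3. No other treatment or allele was given for either group, and the number of animals was not given in the sources used here. The labels name the tissue as bone marrow, whereas the methods of the study describe costal cartilage. The measure was the count of captured transcripts per gene and cell, read as unique molecular identifiers (UMIs).

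PDGF ligands are secreted dimers that drive growth and migration of mesenchymal cells. PDGF-A and PDGF-B are secreted ready to bind, while PDGF-C and PDGF-D carry a CUB domain that proteases remove outside the cell. The products of Pdgfra and Pdgfrb are receptor tyrosine kinases: PDGF-A and PDGF-C bind the alpha receptor, PDGF-D binds the beta receptor and PDGF-B binds both. Endothelial cells are a known source of PDGF-B, which recruits pericytes, and Pdgfra is a widely used marker of skeletal and marrow stromal cells.

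A filter asked of each cell 500 genes or more, 1000 UMIs or more and no more than 10% of UMIs from mitochondrial genes. It left 11746 primary and 5338 cultured cells, with 137148874 and 330129909 UMIs and medians of 10026.5 and 56864.5 UMIs per cell. Levels are counts per 1e+06 UMIs of the summed library (CPM). A count of 3 equalled 0.0219 CPM among primary cells and 0.00909 CPM among cultured cells. The summed level of 9 chondrocyte markers was 68080 CPM in primary and 631.4 CPM in cultured cells, so the primary library carried the markers of the cartilage that the study names as its source and the cultured library far less of them. UMIs of the ZsGreen reporter numbered 60957 among primary and 0 among cultured cells, so donor strain and culture cannot be told apart. The libraries shared 15 kept barcodes. With 1 library per group there was no replicate check and no test, and every interval is an exact 95% interval that covers counting error only.

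The sequences upstream of these genes are shown first because they are the regulatory starting points of transcripts whose levels differed between the libraries. RefSeq promoters on GRCm38.p6, each from 250 bases before to 50 bases after a start site, were searched for 4 of the 6 genes. They covered 5 start sites, and Pdgfb and Pdgfrb were not included. Capitals mark motif matches, and lower case marks the rest. The promoter of Pdgfc lies at chr3:81036166-81036465 on the plus strand, that of Pdgfd at chr9:6168236-6168535 on the plus strand, that of Pdgfra at chr5:75152001-75152300 on the plus strand, and the upstream one of Pdgfa at chr5:138994895-138995194 on the minus strand.
Pdgfc: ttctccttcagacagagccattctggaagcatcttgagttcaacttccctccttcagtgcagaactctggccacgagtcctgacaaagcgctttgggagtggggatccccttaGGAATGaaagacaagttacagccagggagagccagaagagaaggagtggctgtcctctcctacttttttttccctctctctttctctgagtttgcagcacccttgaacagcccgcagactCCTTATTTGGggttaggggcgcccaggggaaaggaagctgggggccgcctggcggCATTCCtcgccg
Pdgfd: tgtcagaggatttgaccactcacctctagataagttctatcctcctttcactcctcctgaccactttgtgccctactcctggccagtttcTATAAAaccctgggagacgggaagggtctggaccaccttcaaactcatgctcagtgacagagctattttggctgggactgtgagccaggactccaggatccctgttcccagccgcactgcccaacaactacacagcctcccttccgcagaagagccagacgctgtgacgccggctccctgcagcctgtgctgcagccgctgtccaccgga
Pdgfra: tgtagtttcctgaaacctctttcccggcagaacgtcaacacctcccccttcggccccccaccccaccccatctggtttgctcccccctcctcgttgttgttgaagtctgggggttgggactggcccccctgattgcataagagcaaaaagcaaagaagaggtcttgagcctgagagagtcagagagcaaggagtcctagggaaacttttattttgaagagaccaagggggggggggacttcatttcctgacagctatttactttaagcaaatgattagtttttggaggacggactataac
Pdgfa: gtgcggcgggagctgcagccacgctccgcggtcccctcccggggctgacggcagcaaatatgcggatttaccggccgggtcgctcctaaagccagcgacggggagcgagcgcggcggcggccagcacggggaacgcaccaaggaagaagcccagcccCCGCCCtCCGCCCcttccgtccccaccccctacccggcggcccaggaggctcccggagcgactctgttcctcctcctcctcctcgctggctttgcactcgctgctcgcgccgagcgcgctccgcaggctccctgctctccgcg

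Both strands were searched for the TATA box (TATAAA), the CCAAT box (CCAAT), the GC box (GGGCGG), the AP-1 site (TGAGTCA), the TEAD site (GGAATG) and the CArG box, the serum response element core. The Pdgfc promoter held a CArG box whose first base was 17 bases before the start, and 1.63% of 32851 mouse promoters of this length held one. It also held a TEAD site on each strand, 137 bases before and 39 bases after the start, against 14.7% of promoters with any. The Pdgfd promoter held a TATA box 160 bases before the start, against 13.6% of promoters. The upstream Pdgfa promoter held 2 GC boxes and had a GC content of 73.3%, and the other Pdgfa promoter held 1, against 35.7% of promoters. The Pdgfra promoter held none of these letters and had a GC content of 51.0%, close to the median of 52.7%. The matches in these promoters did not overlap each other. A match is a description of the letters in the window and not of a factor bound there.

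Of the 4 ligand genes, Pdgfa, Pdgfc and Pdgfd were higher in the cultured library. Pdgfa (chr5:138976014-138997370, minus strand, GRCm38) was at 23.68 CPM (interval 22.87 to 24.5, 3247 UMIs) in primary and 81.34 CPM (80.37 to 82.32, 26854 UMIs) in cultured CDSCs, a log2 ratio of 1.78 (1.73 to 1.83). Pdgfc (chr3:81036416-81214040, plus strand) was at 37.68 CPM (36.66 to 38.72) and 109.9 CPM (108.8 to 111.1), a log2 ratio of 1.54 (1.5 to 1.59). Pdgfd (chr9:6168584-6378850, plus strand) was at 7.845 CPM (7.384 to 8.329) and 32.98 CPM (32.36 to 33.6), a log2 ratio of 2.07 (1.98 to 2.16). The order of these ligands by ratio was Pdgfd, Pdgfa and Pdgfc, and their intervals did not overlap. The protein-coding gene Ddi1 lies within Pdgfd on the opposite strand.

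Pdgfb (chr15:79995874-80014977, minus strand) had few UMIs in both libraries and was lower in the cultured one. It had 39 UMIs, or 0.2844 CPM (0.2022 to 0.3887), in primary and 55 UMIs, or 0.1666 CPM (0.1255 to 0.2169), in cultured CDSCs, a log2 ratio of -0.77 (-1.39 to -0.14). This order rested on 26 primary cells described below. In the 11457 primary cells of chondrocyte-like clusters against 4433 cultured cells outside the haematopoietic-like and shallow clusters, a comparison added after the values were seen, the levels were 0.05947 and 0.1574 CPM from 8 and 51 UMIs and the log2 ratio was 1.40 (0.32 to 2.69).

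Both receptor genes were higher in the cultured library. Pdgfra (chr5:75152292-75198215, plus strand) was at 15.85 CPM (15.19 to 16.53, 2174 UMIs) in primary and 85.61 CPM (84.61 to 86.61, 28262 UMIs) in cultured CDSCs, a log2 ratio of 2.43 (2.37 to 2.50), the highest among the 6 genes. Pdgfrb (chr18:61045150-61085061, plus strand) was at 17.42 CPM (16.73 to 18.13, 2389 UMIs) and 53.91 CPM (53.12 to 54.71, 17798 UMIs), a log2 ratio of 1.63 (1.57 to 1.69). The plot of levels by library shows 5 genes at higher levels in cultured cells and Pdgfb far below them.

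**Figure D1:**
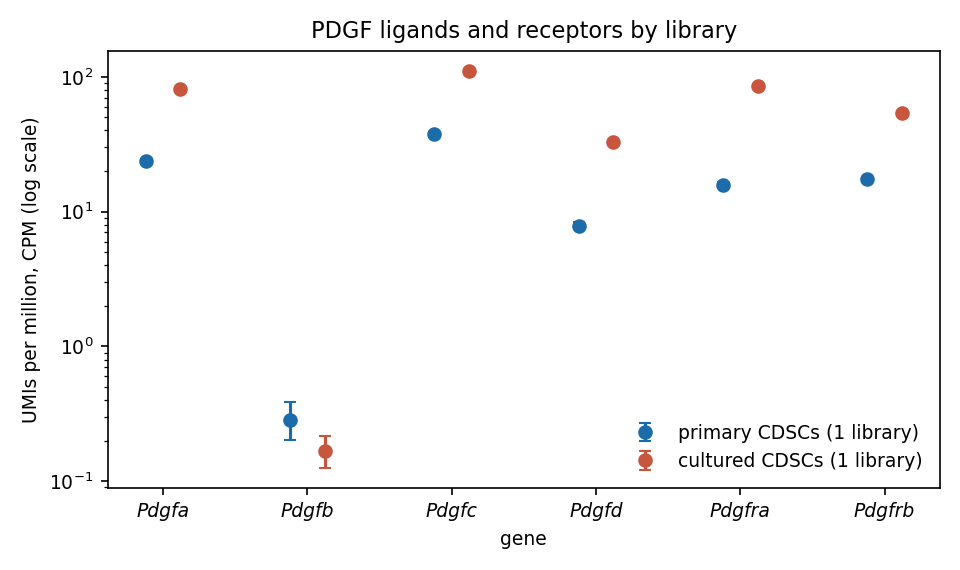
Level of each PDGF gene in CPM (log scale) in the primary and the cultured library, 1 library each, with exact 95% Poisson intervals. Pdgfra stood at 15.85 CPM in primary and 85.61 CPM in cultured CDSCs, and Pdgfb lay at 0.2844 and 0.1666 CPM.

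The 5 genes other than Pdgfb reached 1 CPM in either library, and all 5 were higher in the cultured library, a direction taken by 63.5% of the 12839 genes at that level. Of them, Pdgfra and Pdgfd, that is 2, were at least 4-fold apart, both higher in cultured cells, where 20.1% of all genes tested were 4-fold apart in either direction 12.6% were 4-fold higher and 7.48% were 4-fold lower. All 5 were at least 2-fold higher, as were 28.9% of genes. The median of all genes tested lay at a log2 ratio of 0.36, and relative to it the ratios of the members were 2.07 for Pdgfra, 1.71 for Pdgfd, 1.42 for Pdgfa, 1.27 for Pdgfrb, 1.18 for Pdgfc and -1.13 for Pdgfb. With TMM scaling, which moved that median to 0.16, Pdgfd came to a log2 ratio of 1.87 and was no longer 4-fold apart.

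The difference was also seen in the share of cells with a UMI. At 5000 UMIs per cell (10959 primary and 4543 cultured cells, with 787 and 795 shallower cells left out), 7.41% (6.93% to 7.92%) of primary cells had a Pdgfra UMI, against 31.1% (29.7% to 32.4%) of cultured cells. For Pdgfrb the shares were 8.09% (7.59% to 8.62%) and 25.6% (24.3% to 26.9%). For the ligands the shares were 9.80% and 30.7% for Pdgfa, 15.5% and 36.3% for Pdgfc, and 3.04% and 11.2% for Pdgfd. Pdgfb was detected in 10 primary and 4 cultured cells, 0.0912% and 0.0880%, with overlapping intervals. Without thinning, at unequal depth, the shares were 15.2% and 72.6% for Pdgfra and 16.9% and 74.2% for Pdgfrb, as the plot of shares at both depths shows.

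**Figure D2:**
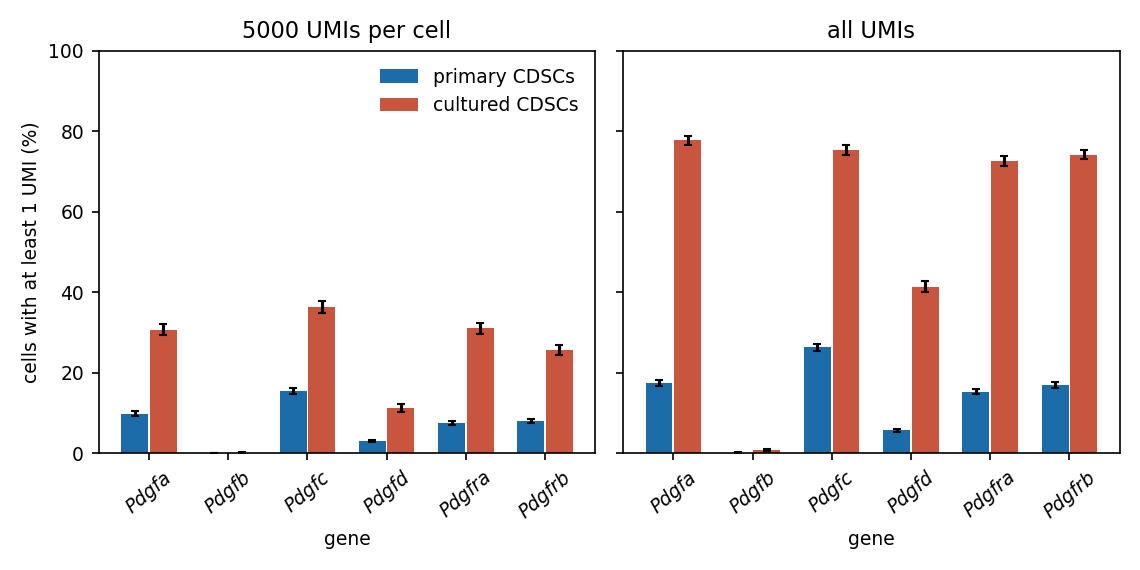
Cells in which each PDGF gene was detected, in percent, after thinning each cell to 5000 UMIs (left) and with all UMIs (right), with exact 95% binomial intervals. The cultured bars stay above the primary ones at equal depth for every gene but Pdgfb, at 31.1% against 7.41% for Pdgfra.

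At equal depth, 14.5% of primary and 48.9% of cultured cells had a UMI of either receptor, and 25.8% and 59.3% had a UMI of any ligand. A ligand and a receptor were found together in 4.49% (4.11% to 4.89%) of primary cells and in 29.8% (28.5% to 31.2%) of cultured ones, and none of the 6 genes in 64.1% and 21.7%. The joint share of any ligand and any receptor rises with their separate shares, and an excess over those was not tested. Both receptors were detected in 0.976% and 7.79% of cells. In the primary library Pdgfra was found in 12.1% (9.99% to 14.4%) of cells with a Pdgfrb UMI and in 7.0% (6.51% to 7.52%) of cells without one. In the cultured library these shares were 30.5% and 31.3%, with overlapping intervals. Pdgfc was found in 45.6% of cultured cells with a Pdgfd UMI and in 35.2% of those without one, while for Pdgfra the shares were 23.4% (19.8% to 27.3%) and 32.1% (30.6% to 33.5%). Cells with a UMI of the proliferation gene Mki67 had Pdgfa in 23.4% against 31.8% of the other cultured cells and Pdgfd in 6.90% against 11.9%. Pdgfrb was lower with Mki67 too, in 20.9% against 26.3%, and Pdgfc was found in 32.3% against 37.0%, with overlapping intervals for Pdgfc. The Pdgfra shares with and without Mki67 were 31.3% and 31.0%. Pdgfra was found in 32.6% of cultured cells with a UMI of Prrx1, a factor of skeletal mesenchyme, and in 23.0% of those without. With and without the smooth muscle actin gene Acta2 its shares were 28.5% and 35.1%. Cells are not replicates, so these shares describe the libraries only.

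Clusters were made within each library without the PDGF genes or the pathway list. The primary library had 9 chondrocyte-like clusters with 11457 cells and 289 other cells. Of the others, 227 were in 7 sub-clusters marked by the collagen gene Col1a1 and by tenocyte genes, 36 were in an unnamed sub-cluster with the pericyte genes Rgs5 and Notch3 among its leading genes and Col1a1 and the tenocyte gene Tnmd among its markers too, and 26 were in a sub-cluster led by Fabp4 and Cma1. In these 26 cells, 25 had more UMIs of endothelial than of mast cell markers, with 1200 endothelial and 5 mast cell marker UMIs in all, and 1 cell had 1169 mast cell marker UMIs.

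Primary Pdgfb was concentrated in the endothelial-marker cells. Of its 39 UMIs, 30 (76.9%) were in those 25 cells, spread over 11 of them, and the level in the 26-cell sub-cluster was 102.4 CPM. The chondrocyte-like clusters together had 8 UMIs, or 0.0595 CPM. Pdgfd had its highest primary level in the same 26 cells, at 170.6 CPM (126.6 to 224.9), against 7.329 CPM (6.879 to 7.801) in the chondrocyte-like clusters, and 50 UMIs lay in 16 of the 25 endothelial-marker cells. These cells held only 4.65% of all primary Pdgfd UMIs. The 8 endothelial markers summed to 16.14 CPM in primary and 11.29 CPM in cultured CDSCs, but Egfl7 alone was at 4.258 and 10.11 CPM. The other 7 were lower in cultured cells, with Pecam1 at 4.448 and 0.2756 CPM and Cdh5 at 1.108 and 0.05452 CPM. Of the 55 cultured Pdgfb UMIs, 22 were in the cluster led by Nr5a2 and Barx1, at 0.9375 CPM (0.5876 to 1.419). The level was higher in the 9 haematopoietic-like cells, at 9.868 CPM (2.689 to 25.27), but from 4 UMIs.

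Within the chondrocyte-like clusters the ligands Pdgfa and Pdgfc had different peaks by level. Pdgfa was highest, at 61.04 CPM (56.34 to 66.03), in the cluster led by Slc35f1, Runx3 and Wnt5b (p7), where Pdgfc was at 24.24 CPM (21.31 to 27.46). Pdgfc was highest, at 88.85 CPM (84.52 to 93.34), in the cluster led by Tll1 and Clu, with Cilp2 and the lubricin gene Prg4 among its leading genes (p1), where Pdgfa was at 44.14 CPM (41.11 to 47.34). Pdgfrb was also highest in p1, at 35.31 CPM, and lowest in the cluster led by Acta2 (p2), at 8.138 CPM. Pdgfra was at 25.02 CPM in p1 and 8.498 CPM in p2. Pdgfd ran from 4.269 CPM (p10, 4 UMIs) to 9.49 CPM (p6, 8.14 to 11.0), and p3, at 4.568 CPM (3.633 to 5.67), lay below p6 and p2, at 9.47 CPM (8.36 to 10.69), with no overlap of intervals. The cluster led by Cenpf and Top2a, genes of dividing cells (p9), had 23.11 CPM of Pdgfra and 10.24 CPM each of Pdgfc and Pdgfrb.

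In the Col1a1-marked cells Pdgfa was at 74.54 CPM (62.45 to 88.28), Pdgfra at 61.75 CPM (50.8 to 74.36) and Pdgfrb at 42.28 CPM (33.31 to 52.92). The Pdgfra interval lay above that of every chondrocyte-like cluster, while those of Pdgfa and Pdgfrb overlapped p7 and p1. In the Rgs5-led cells Pdgfrb was at 47.22 CPM (30.56 to 69.71) and Pdgfa at 73.66 CPM (52.38 to 100.7). The 289 cells held 1.91% of primary UMIs, but 5.48% of those of Pdgfa, 6.26% of Pdgfra, 8.36% of Pdgfd, 4.44% of Pdgfrb, 1.76% of Pdgfc and 79.5% of Pdgfb. The share of Pdgfra-positive cells at 5000 UMIs was 7.17% (6.69% to 7.67%) in chondrocyte-like cells, at a median depth of 10076 UMIs, and 11.1% (1.38% to 34.7%, 2 of 18 cells) in the 26-cell sub-cluster, at 9403 UMIs. The 26-cell share was also 2 of 18 for Pdgfrb, Pdgfa and Pdgfc, against 7.90%, 9.51% and 15.5% of chondrocyte-like cells, all within that interval. Over so few cells, expression in chondrocyte-like cells and free RNA could not be told apart for these shares. By level, the 26 cells were at 17.06 CPM (5.54 to 39.81) for Pdgfa and 13.65 CPM (3.719 to 34.95) for Pdgfc. Pdgfa in p7 and Pdgfc in p1, each picked as the highest of 9 clusters, lay above these intervals. The intervals of Pdgfra and Pdgfrb in p1 overlapped those of the 26 cells (20.47 CPM, 7.513 to 44.56, and 17.06 CPM, 5.54 to 39.81). Over all chondrocyte-like cells Pdgfa (22.81 CPM), Pdgfra (15.15 CPM) and Pdgfrb (16.97 CPM) lay within the 26-cell intervals. Pdgfc, at 37.74 CPM, lay above its interval. Free RNA was not tested. The share of Pdgfra-positive cells was 11.4% (9.98% to 13.0%) in p1 and 4.07% (3.24% to 5.04%) in p2, with no overlap of intervals.

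**Figure D3:**
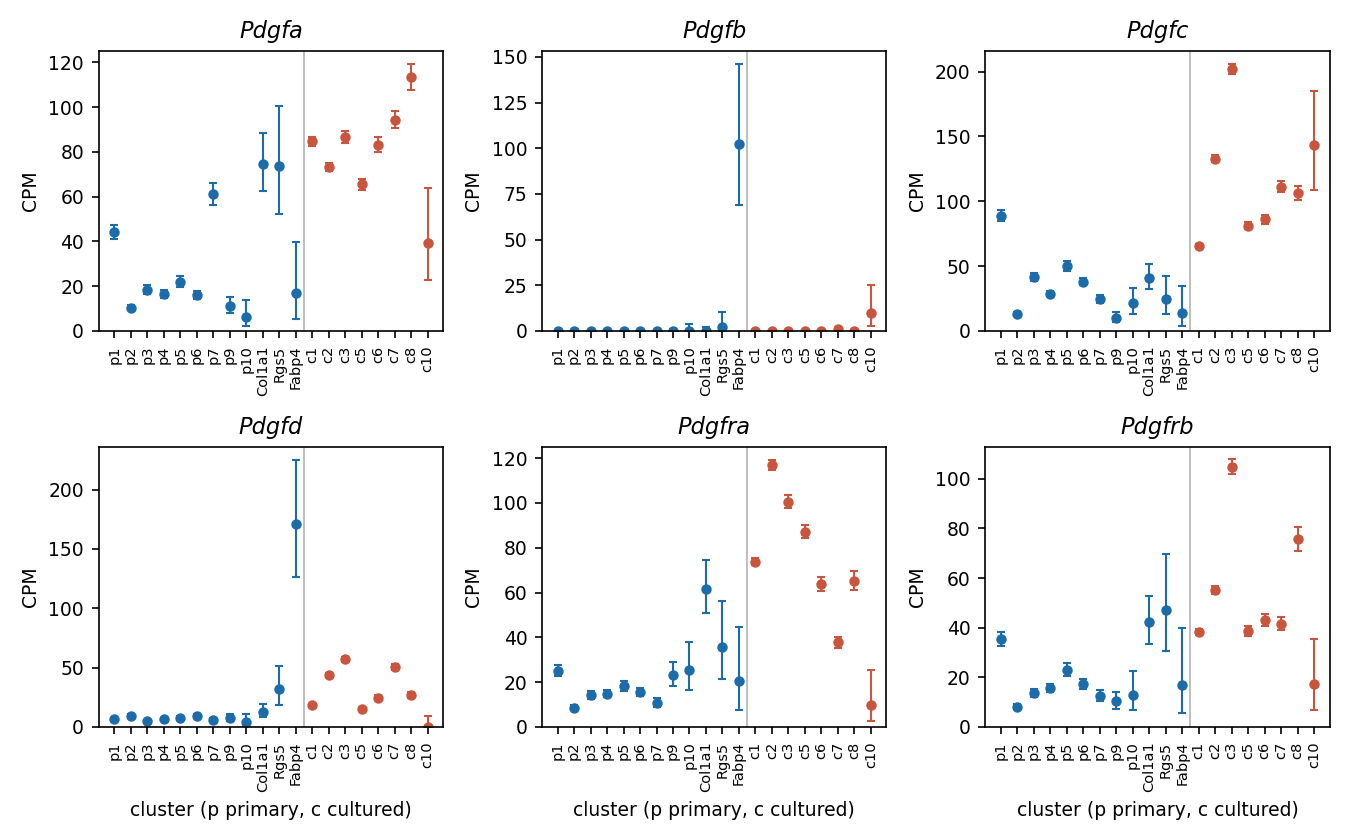
Level of each PDGF gene in CPM by cluster (p, primary; c, cultured) with exact 95% Poisson intervals, where Col1a1, Rgs5 and Fabp4 name the other primary cells by a leading gene, and the shallow clusters c4 and c9 are left out. Pdgfb and Pdgfd peak in the Fabp4 sub-cluster, at 102.4 and 170.6 CPM, and Pdgfra runs from 37.71 to 116.9 CPM over the cultured clusters c1 to c8 shown.

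The cultured clusters had no class name except 9 haematopoietic-like cells (c10), and the order below covers the 7 clusters of at least 100 cells that were not shallow. Among them Pdgfc, Pdgfd and Pdgfrb were all highest in the cluster led by Mmp13 and Comp (c3), at 201.8 CPM (197.8 to 205.9), 57.03 CPM (54.9 to 59.21) and 104.9 CPM (102.0 to 107.8). Pdgfra was highest in the cluster led by Hmcn1 (c2), at 116.9 CPM (114.6 to 119.3), and lowest in the Nr5a2-led cluster (c7), at 37.71 CPM (35.27 to 40.28). Apart from Pdgfb, Pdgfa had the narrowest range, from 65.49 CPM in the Cenpf-led cluster (c5) to 113.6 CPM in the cluster led by Ptn and Thy1 (c8), a 1.73-fold range. In the haematopoietic-like cells Pdgfra was at 9.868 CPM (2.689 to 25.27), Pdgfrb at 17.27 CPM (6.943 to 35.58) and Pdgfc at 143.1 CPM (108.7 to 185.0), and Pdgfd had no UMI, which allows up to 9.101 CPM. At 5000 UMIs per cell Pdgfra was found in 1 of these 9 cells (11.1%, 0.281% to 48.2%), at a median depth of 35946 UMIs. In the 4408 cells of the clusters that were not shallow, at a median of 66983 UMIs, it was found in 31.6% (30.2% to 33%). For Pdgfc the shares were 4 of 9 (44.4%) and 37.1%, and for Pdgfa 2 of 9 (22.2%) and 31.0%. Pdgfrb and Pdgfd were found in 0 of the 9, against 26.1% and 11.4%. For all 5 genes the 9-cell interval holds the share of the clusters that were not shallow, but over 9 cells these intervals are wide. By level, those clusters were at 86.44 CPM for Pdgfra, 54.52 CPM for Pdgfrb and 33.41 CPM for Pdgfd, above the 9-cell intervals. For Pdgfa they were at 81.54 CPM, also above the 9-cell level of 39.47 CPM (22.56 to 64.1). Pdgfc, at 111.4 CPM, lay within its 9-cell interval. Free RNA was not tested here.

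The balance of the receptor transcripts is given as shares of UMIs, with the same limit for primary chondrocyte-like cells, which held 2038 of 2174 Pdgfra and 2283 of 2389 Pdgfrb UMIs of that library. Pdgfra made up 47.6% (46.2% to 49.1%) of receptor UMIs in primary and 61.4% (60.9% to 61.8%) in cultured CDSCs. In the cultured library the share was 69.3% in the Cenpf-led cluster and 67.9% in the Hmcn1-led cluster, but 49.0% in the Mmp13-led, 47.6% in the Nr5a2-led and 46.4% in the Ptn-led cluster. In the primary library it was lowest in p1, at 41.5% (38.5% to 44.5%), and highest in the dividing cells of p9, at 69.3% (60.0% to 77.6%). The interval of p9 overlapped those of p10 and of the Col1a1-marked cells but of no other chondrocyte-like cluster. The cultured cluster led by histone genes and Clspn (c6), also of dividing cells, was at 59.7% (57.9% to 61.5%), and the interval of the Cenpf-led cluster (68.0% to 70.6%) overlapped that of the Hmcn1-led one (67.2% to 68.7%).

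**Figure D4:**
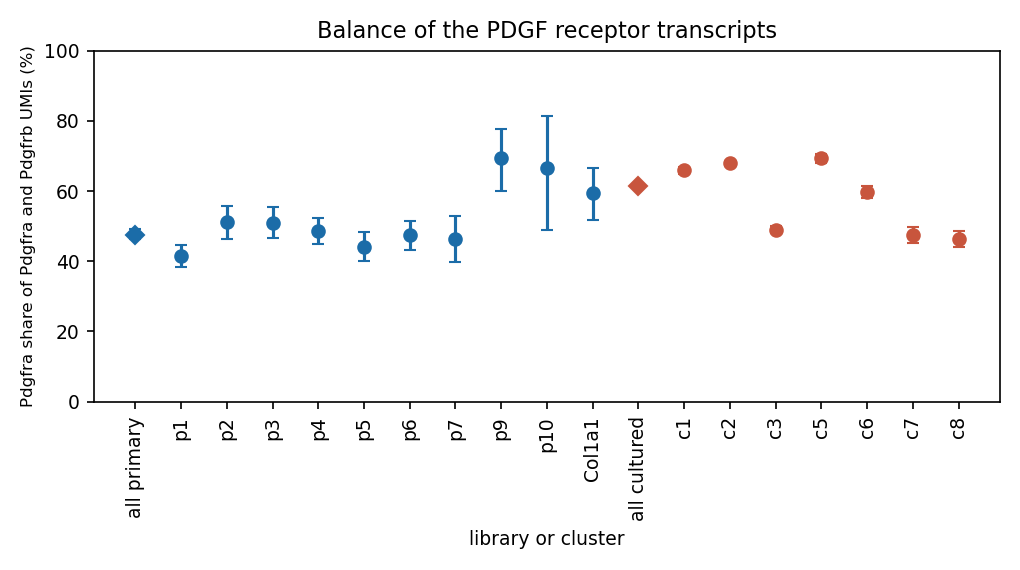
Share of Pdgfra among the UMIs of Pdgfra and Pdgfrb in each library (diamonds) and cluster (circles), with exact 95% binomial intervals. The cultured library lies at 61.4% against 47.6%, while clusters c3, c7 and c8 lie between 46.4% and 49.0%.

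The genes whose pattern over 18 clusters of at least 100 cells (10 primary, 8 cultured, each library centred on its own clusters) was most like each member were, by Pearson r of log2(CPM + 1), Kremen1 (0.86) for Pdgfa, Bcas3 (0.95) for Pdgfc, Zfp865 (0.93) for Pdgfd, 4921524J17Rik (0.88) for Pdgfra and Pik3r1 (0.97) for Pdgfrb. Pik3r1 encodes the regulatory subunit of phosphoinositide 3-kinase. The next were Ift43 and Prr5 for Pdgfa, Fbxo33 and Foxo3 for Pdgfc, Plekha1 and Tnip2 for Pdgfd, Col24a1 and Galc for Pdgfra, and Prkg1 and Sgce for Pdgfrb. Among the members, Pdgfc and Pdgfrb were most alike, with r = 0.86, and Pdgfa and Pdgfd least, with r = 0.25. The points share libraries and differ in depth, and the 8 cultured ones include the shallow cluster c4, at a median of 1284 UMIs. There Pdgfc was at 26.48 CPM and Pdgfrb at 19.86 CPM, below the other 7 cultured clusters. The r values without c4 were not computed. The genes named as most alike were the highest of 9114 genes compared.

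The other genes of the pathway lay to both sides. Of 73 pathway genes, 69 reached 1 CPM, and 18 of these (26.1%) were at least 4-fold apart, against 20.1% of all genes tested. In the cultured library 10 were higher and 8 lower, with a median log2 ratio of 0.33 against 0.36 over all genes. Without the related receptors and ligands, where 7 of 11 were 4-fold apart, the count was 11 of 58 (19.0%). Among ligand processing genes, the plasminogen activators Plat, which activates PDGF-C, and Plau, which activates PDGF-D, were higher in cultured cells, with log2 ratios of 3.49 (1.961 and 22.02 CPM) and 2.84 (1.487 and 10.67 CPM). The proprotein convertases that process PDGF-A and PDGF-B had no member 4-fold apart, with Furin at -1.36. Among co-receptors and binding partners, Nrp1 was higher, at 4.18, and the PDGF receptor-like gene Pdgfrl and Sparc, which encodes a PDGF-binding matrix protein, were lower, at -4.60 and -3.89.

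Of 31 adaptors and effectors only Pik3cb, a catalytic phosphoinositide 3-kinase subunit, was 4-fold apart, at 2.89, a share of 3.23% against 20.1% of all genes. None of 11 negative regulators was, and their log2 ratios ran from -1.88 for Spry2, a feedback inhibitor, to 1.98 for Cblb, a ubiquitin ligase. All 6 early response genes were lower in cultured cells and 5 of them at least 4-fold, against 7.48% of all genes. Fos was at -4.12, Junb at -3.14, Fosb at -2.97, Myc at -2.49 and Egr1 at -2.46. Primary cells came from collagenase digestion and a sort, and the other cells from culture. PDGF pathway output and cell preparation therefore cannot be told apart for these genes. Of the related receptors and ligands, Vegfd (6.48), Csf1 (3.94), Kitl (3.38) and Vegfc (3.21) were higher in cultured cells. Csf1 and Kitl are ligands of the macrophage and stem cell factor receptors, Csf1r and Kit, which are relatives of the PDGF receptors. Csf1r itself was at 0.7656 and 1.724 CPM, and Kit at 0.2625 and 0.06058 CPM. Of this role 6 genes were 4-fold higher and 1, Flt1, was 4-fold lower, at -3.65.

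**Figure D5:**
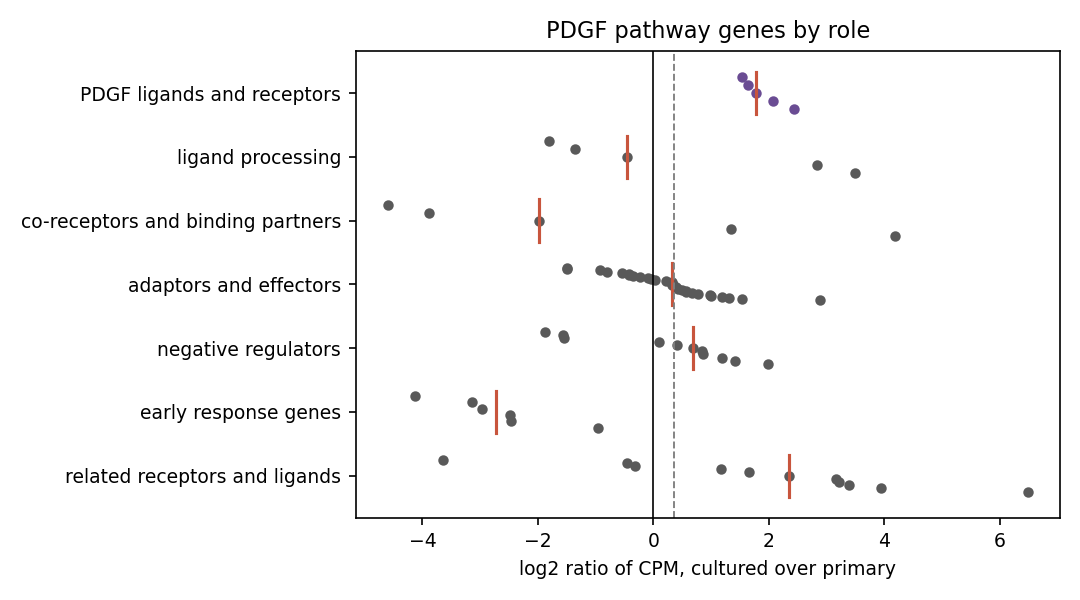
Log2 ratio of CPM, cultured over primary, of each gene that reached 1 CPM, by role, with the median of each role (short line) and of all genes tested (dashed, 0.36). The 5 PDGF genes lie between 1.54 and 2.43, and the 6 early response genes all lie below 0.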

How the data were processed

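Single-cell RNA sequencing libraries of primary and cultured CDSCs (1 each) were grouped by their treatment labels. The matrices deposited by the authors held whole-number UMI counts with no normalisation. Cell Ranger 7.0.0 is named in the submitters' processing notes, and the study aligned reads to GRCm38. The annotation release and whether introns were counted are not given in the sources used here. Thresholds of the study's own cell filter were not given, so the filter above was used.

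Doublets were kept, since Scrublet's automatic threshold called 0 primary and 1 cultured cell and had not worked. Leaving out the highest scores (1118 and 461 cells) was an alternative. Counts were summed per library. Log2 ratios used counts raised to at least 3, ratios had exact conditional intervals, levels exact Poisson intervals and shares exact Clopper-Pearson intervals (scipy 1.17.1). Cells were thinned without replacement to 5000 UMIs. Leiden clusters (scanpy 1.11.5, leidenalg 0.10.2) used 2000 variable genes, 10 principal components, 20 neighbours and resolution 0.5. The name chondrocyte-like needed 3 or more chondrocyte markers at 1000 CPM, a step that rests on abundance, which free RNA can carry. A primary cluster with markers of several classes was divided again with 10 neighbours and resolution 1.0. TMM factors came from edgeR 4.0.16 as an alternative. The named genes were the 6 members, pathway genes at least 4-fold apart with at least 10 CPM, the 3 most alike genes per member with at least 10 CPM and fixed co-detection partners. Other pathway genes were named as examples after their values were seen. Coordinates were those of GENCODE M21. The members and lists were chosen with earlier results of these data known. The steps were checked on simulated data. Other alternatives were other cell filters, depths and cluster settings.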

Additional observations from a re-analysis of the deposited data

Results flagged for a closer look

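The 5460 cultured barcodes that the cell filter left out, with a median of 775 UMIs each, carried PDGF transcripts above the level that 3 counts give (0.476 CPM). Summed over these barcodes, Pdgfc stood at 179.1 CPM, Pdgfra at 115.3 CPM, Pdgfrb at 73.51 CPM, Pdgfd at 66.05 CPM and Pdgfa at 53.19 CPM. The kept cultured cells had 109.9, 85.61, 53.91, 32.98 and 81.34 CPM of the same genes in that order. Pdgfa was thus lower and the other 4 were higher in the left-out barcodes. Pdgfb had 2 UMIs there.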

How the results depend on the processing

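Ratios and 4-fold counts were recomputed with every deposited barcode, a stricter cell filter, the highest doublet scores left out, TMM scaling and equal weight per cell, and the counts also with other folds and CPM limits. The receptor balance had the same settings without TMM, shares of cells had other depths and doublets left out, and the share outside the chondrocyte-like clusters had other cluster settings, depth and doublets. Co-detection, cluster levels and likeness had no alternative. The log2 ratios of Pdgfa, Pdgfc, Pdgfd, Pdgfra and Pdgfrb were above 0 in 30 of 30 such recomputations, the comparison restricted to cell classes included, with ranges of 1.57 to 1.84, 1.35 to 1.56, 1.87 to 2.19, 2.24 to 2.51 and 1.43 to 1.68. That of Pdgfb reversed to 1.40 when the restricted cell classes were compared, since the construction leaves out the 26 cells with most of its primary UMIs. The number of members at least 4-fold apart was 1 with TMM scaling and 5 at a 2-fold limit, and the number of pathway genes was 35 at a 2-fold limit. The Pdgfra share of receptor UMIs in the cultured library was 60.3% with equal weight per cell. The share of primary PDGF UMIs from outside the chondrocyte-like clusters, 4.48%, came to 5.08% with 30 principal components, 4.07% without the highest doublet scores and 3.73% with at least 5000 UMIs per cell, and the cause was not tested. The share of cells with a Pdgfb UMI was higher in the cultured library at 10000 UMIs, from 7 cultured and 5 primary cells with overlapping intervals. It was also higher without thinning, at unequal depth, but lower at 2500 UMIs, from 0 cultured and 8 primary cells. No paired analysis was possible because each group had 1 library, and no library could be left out for the same reason.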

Other observations

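Cells with a UMI of Cxcl12, the chemokine of marrow stromal cells, numbered 71 of 10959 primary cells at 5000 UMIs, and Pdgfra was detected in 22.5% (13.5% to 34%) of them against 7.31% (6.83% to 7.82%) of the others. In the cultured library, where 65.9% of cells had Cxcl12, the shares were 29.7% (28.1% to 31.4%) and 33.7% (31.3% to 36.1%). Primary cells with a UMI of Ly6a, which encodes the Sca-1 antigen, had Pdgfc in 8.88% against 16.5% of the others. Pdgfa (6.44% against 10.3%), Pdgfra (4.37% against 7.85%) and Pdgfrb (5.01% against 8.54%) were lower there too, but Pdgfd was higher (4.58% against 2.81%). Primary cells without a UMI of the chondrocyte factor Sox9 had Pdgfra in 11.6% against 7.19% of those with one. Pdgfa (14.8% against 9.54%), Pdgfc (22.1% against 15.2%) and Pdgfrb (12.4% against 7.87%) were also higher without Sox9. For Pdgfd the intervals overlapped, at 3.75% and 3.0%.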
